A study of Drosophila melanogaster with 4 samples.

Results

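Narrow peaks of the BTB/POZ protein CG16778 that lie close together on the autosomes of Drosophila melanogaster are described here, 677 of the 4164 peaks in the deposited list (16.3%), which is 19.3% of its 3506 autosomal peaks. They were chosen by position and width. Autosomal peaks were chained with the next peak wherever the gap between them was 5000 bp or less, and peaks under 1000 bp wide in chains of 5 or more peaks were kept. The autosomal arms are 2L, 2R, 3L, 3R and 4. Midpoints on 3R between 21800000 and 21890000 and on 2L between 21400000 and 21550000 (release 5), which hold 86 peaks, were set aside. The 677 members fell into 109 chains, called groups here. Width, spacing and group size chose the members, so those values are given as a description only.

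CG16778 is listed as lov (jim lovell), a protein-coding gene. BTB/POZ proteins use their BTB domain to pair with each other or with partners, and many also carry a DNA-binding domain and act as transcriptional regulators. lov is known for roles in fly locomotor, courtship and body-position behaviour. In chromatin immunoprecipitation followed by sequencing (ChIP-seq), DNA bound by a protein is enriched with an antibody, and a peak is a stretch with more fragments than a control predicts. Developmental genes of the fly often have many separate enhancers spread over kilobases, and a regulator can bind several of them side by side.

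The series holds 2 ChIP libraries, made with a polyclonal antibody raised in rabbit against a piece of the CG16778 protein, and 2 input DNA libraries. All 4 came from whole embryos of the y; cn bw sp stock, a marker strain of unknown sex. It carries Rh6[1], y[1], GstD5[1], bw[1], LysC[1], cn[1], MstProx[1], sp[1], Gr22d[1] and Gr22b[1], and also lab[R4.2], CG33964[R4.2] and oc[R3.2]. The stage is labelled 0 to 8 h. The collection details give 2 h of prelaying and 8 h of egg laying, but also speak of an 8 to 16 h egg laying. Whole embryos mix all cell types, so the peaks of 1 group need not be bound in the same cells.

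The deposited result is 1 list of peaks for the series, with a start, an end and a score each. No library has values of its own, so there is no replicate error, read depth is unknown, and no test over samples could be made. The score has no stated unit and was read as −log10 of the caller's p-value, from values that many peaks shared. It ranks peaks within the list and does not measure how strongly a site is bound. Members are set beside the 863 lone narrow autosomal peaks, which had no other peak within 5000 bp on either side, and beside narrow peaks in pairs (740) and in chains of 3 or 4 (910). Exact 95% Clopper-Pearson intervals cover counting error only. They treat peaks as independent, and no difference between these kinds of peak was tested. The genes and sequence at the members were not analysed here, because no genome or annotation of release 5 was used.

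The groups were short stretches with several separate narrow peaks. The 109 groups spanned 2.56 to 24.9 kb with a median of 8.36 kb (quartiles 5.79 and 11.2 kb), and together they took up 968 kb. Most were small, with 42 groups of 5 peaks, 30 of 6 and 14 of 7. Only 11 groups had 10 or more peaks in the count of all chain peaks, and these held 128 members. Peaks covered a median of 35.0% of a group's span (quartiles 26.5 and 51.8%), so most of the DNA inside a group lay between peaks. The members themselves covered 267 kb, and their median width was 340 bp, with quartiles of 250 and 486 bp.

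Within the groups, neighbours mostly lay well under a kilobase apart. The median of the 614 gaps was 564 bp, with quartiles of 207 and 1444 bp, and the centres of neighbours were a median of 1122 bp apart. Of the gaps, 46.3% were 500 bp or less, and 8.96% exceeded 3000 bp. The shortest gap was 45 bp. Neighbours in chains of 2 to 4 peaks were spaced much the same, with a median gap of 557 bp over 1071 gaps and 46.7% of them up to 500 bp. The spacing in dense groups and in shorter chains was thus alike, a comparison that was not tested. The rule limits the gaps of both to 5000 bp, and that dense groups hold more peaks in a row is their definition. From the list, separate narrow sites and 1 wider enriched stretch broken by short gaps cannot be told apart. When peaks up to 500 bp apart were merged before chaining, 173 narrow members in 36 groups were left.

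**Figure D1:**
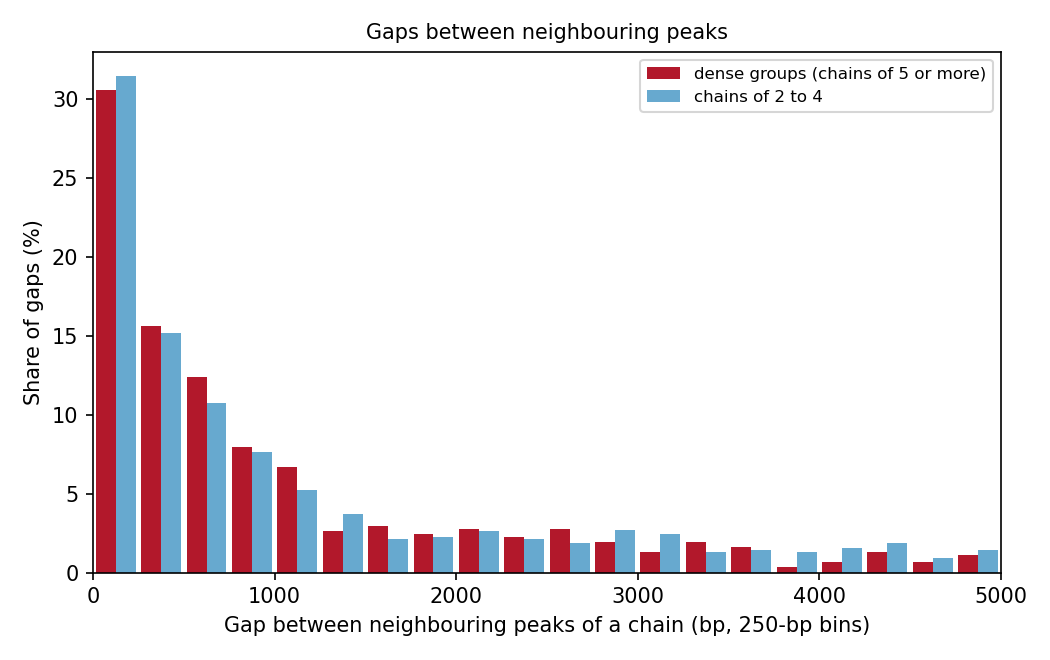
Share of the gaps (%) between neighbouring peaks by gap length in bins of 250 bp, for dense groups (614 gaps, red) and chains of 2 to 4 peaks (1071 gaps, blue). Both kinds have their most frequent gaps at up to 250 bp (30.6% in dense groups and 31.5% in chains of 2 to 4) and a long tail up to the limit of 5000 bp.

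Members made up different shares of the arms' peaks, which is given as a description. The rule takes members in whole groups, so the intervals below, which treat peaks as independent, are too narrow to compare arms. Arm 2R held 205 members in 33 groups, which were 24.0% of its 853 peaks (exact interval 21.2 to 27.0%). Arm 3L held 176 in 26 groups, or 20.6% (17.9 to 23.5%). Arm 2L held 127 in 21 groups, or 16.7% (14.1 to 19.6%), and 3R held 169 in 29 groups, or 16.7% (14.4 to 19.1%). The 86 peaks set aside are counted in the totals of 2L and 3R. Chromosome 4 had no member among its 25 peaks, for which the exact interval reaches up to 13.7%.

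The groups were scattered along the arms. Of the 99 autosomal megabases with a peak, 62 held members, and the 5 richest held 130 members (19.2% of all). The richest megabase was 2R from 9000001 to 10000000, with 29 members in 5 groups among 68 peaks. Next came 3R from 1 to 1000000 with 28 members in 5 groups, and 3L from 16000001 to 17000000 with 25 in 4 groups. On 2L, the megabases from 2000001 and from 19000001 held 24 members each. The median member score in these 5 bins ran from 11.6 on 2L (from 19000001) to 13.0 on 2L (from 2000001), close to the 11.8 of all members. A group's nearest other dense group was a median of 219 kb away (quartiles 33.8 and 594 kb), but 18 of the 109 groups had another within 20 kb. The nearest peak outside a group lay within 10 kb for 43 groups.

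The largest group by members lay on 3R from 12056595 to 12081144 and held 16 members and 1 broad peak in 24.6 kb. Its members scored from 8.96 to 22.77 with a median of 12.0, and its broad end peak scored only 13.06. The highest member, at 12061537 to 12062199, was the fourth peak from the left. A gap of 4114 bp separated the first 9 peaks from the other 8, and a limit shorter than this gap would have split the group.

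The second group, on 3L from 14951621 to 14976527, also held 16 members, in 24.9 kb and without a broad peak. Read from left to right its scores were 12.97, 10.26, 12.82, 7.73, 7.55, 13.46, 9.74, 11.88, 11.51, 9.22, 19.14, 13.0, 16.14, 17.39, 8.63 and 17.88. The 4 scores above 15 all lay in the right part of the group, from 14968614 on. Peaks covered 21.3% of this group.

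The group on 2R from 4535000 to 4546308 was compact, with 14 members in 11.3 kb and 53.3% of the span covered. Its scores ran from 7.5 to 15.79 with a median of 12.8, so no peak of it stood out. On 3L from 10841348 to 10856485, 13 members and 1 broad peak filled 15.1 kb, and the member scores ran from 7.98 to 20.35. On 2L from 19571135 to 19587654, 12 members scored from 7.86 to 21.98.

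Other large groups were less even and held 1 or more peaks well above the rest. On 2R from 2483265 to 2499339, the seventh of 11 members scored 42.91, and the other members ran from 7.07 to 20.74. On 3L from 11407215 to 11416554, the 9 scores from left to right were 10.78, 18.7, 11.24, 13.5, 21.07, 50.99, 8.64, 28.93 and 10.62. This group alone held 3 members of 20 or more. On 3L from 16035503 to 16046437, a member of 33.94 stood beside a broad peak of 24.66, and the other members stayed at 14.39 or less. On 2R from 8474704 to 8481737, a broad peak of 24.85 was followed by members of 36.26, 23.86, 13.62 and 8.69, a run of falling scores over adjacent peaks.

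The remaining groups among the 12 largest were flatter. The 10 members on 2R from 7480206 to 7492898 scored from 8.83 to 23.22, and the 10 on 2R from 9877908 to 9896198 from 8.11 to 16.18. The 9 on 3R from 4627366 to 4637742 scored from 8.68 to 15.02. Over these 12 groups, which held 138 members, the median member score stayed between 11.1 and 13.5.

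**Figure D2:**
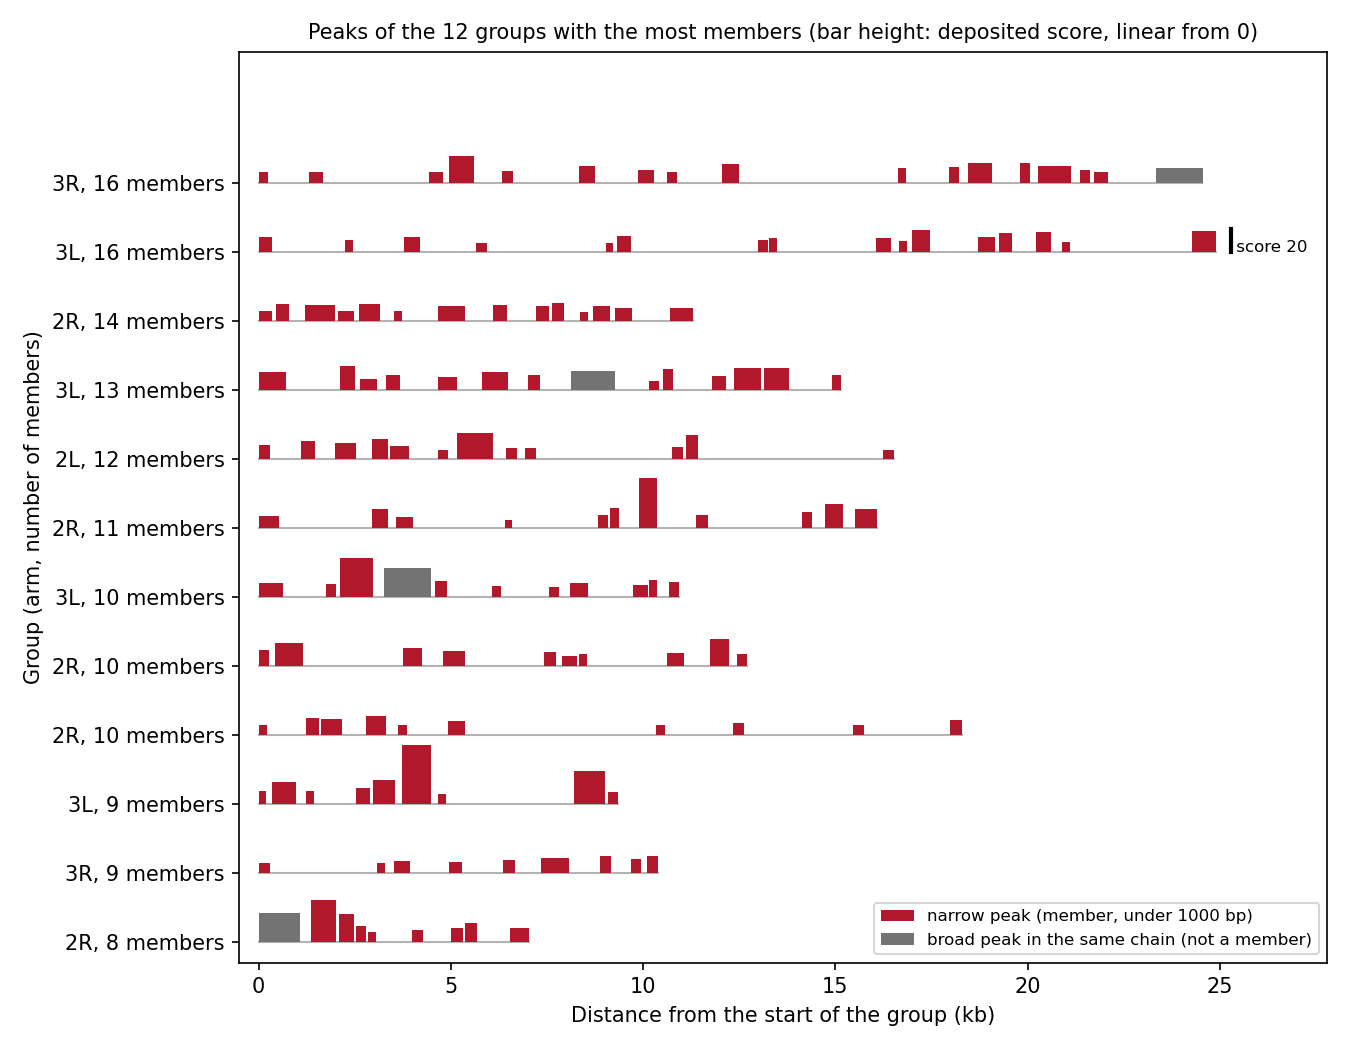
Peaks of the 12 groups with the most members, by distance from the start of each group (kb), with bar width as peak width and bar height as the deposited score on a linear scale from 0 (the black bar marks a score of 20). Narrow members are red and broad peaks of the same chain are grey. Groups such as the 14 members on 2R are even, whereas the 11 members on 2R and the 9 on 3L each hold 1 tall peak, of 42.91 and 50.99.

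The score of a typical member was close to that of a peak standing alone. The median score of members was 11.81, with quartiles of 9.77 and 14.8 and a range of 6.71 to 52.03. The median of lone narrow peaks was 11.92, with quartiles of 9.69 and 15.8 and a range of 6.38 to 156.72. The difference of medians was −0.11 (members minus lone peaks). Narrow peaks in chains of 3 or 4 had a median of 12.0 and those in pairs one of 11.8. The low end was alike too, as 27.6% of members and 28.7% of lone peaks scored under 10. On 2L the median was 11.8 for members and 11.9 for lone peaks, and on 2R it was 12.5 for members and 12.3 for lone peaks. On both 3L and 3R it was 11.6 for members and 11.9 for lone peaks.

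A smaller share of the members than of the lone peaks reached high scores, a difference that was not tested. Of the 677 members 59 scored 20 or more, which is 8.71% (exact interval 6.70 to 11.1%), whereas 15.3% of all autosomal peaks did. That background includes the broad peaks, of which 66.5% reached 20. Among lone narrow peaks the share was 12.6% (109 of 863, interval 10.5 to 15.0%), in chains of 3 or 4 it was 13.4% (11.3 to 15.8%), and in pairs 12.0% (9.77 to 14.6%). The share was lower in members than in lone peaks on each of the 4 long arms. It was 11.0% of members and 14.3% of lone peaks on 2L, and 10.2% of members and 12.7% of lone peaks on 2R. On 3L it was 9.09% of members and 11.3% of lone peaks, and on 3R 4.73% of members and 12.4% of lone peaks. The gap was widest on 3R, and without that arm the shares were 10.0% of members and 12.7% of lone peaks. Scores of 30 or more were held by 14 members (2.07%), against 36 lone peaks (4.17%) and 5.31% of all autosomal peaks. Scores of 50 or more were held by 2 members and 10 lone peaks.

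**Figure D3:**
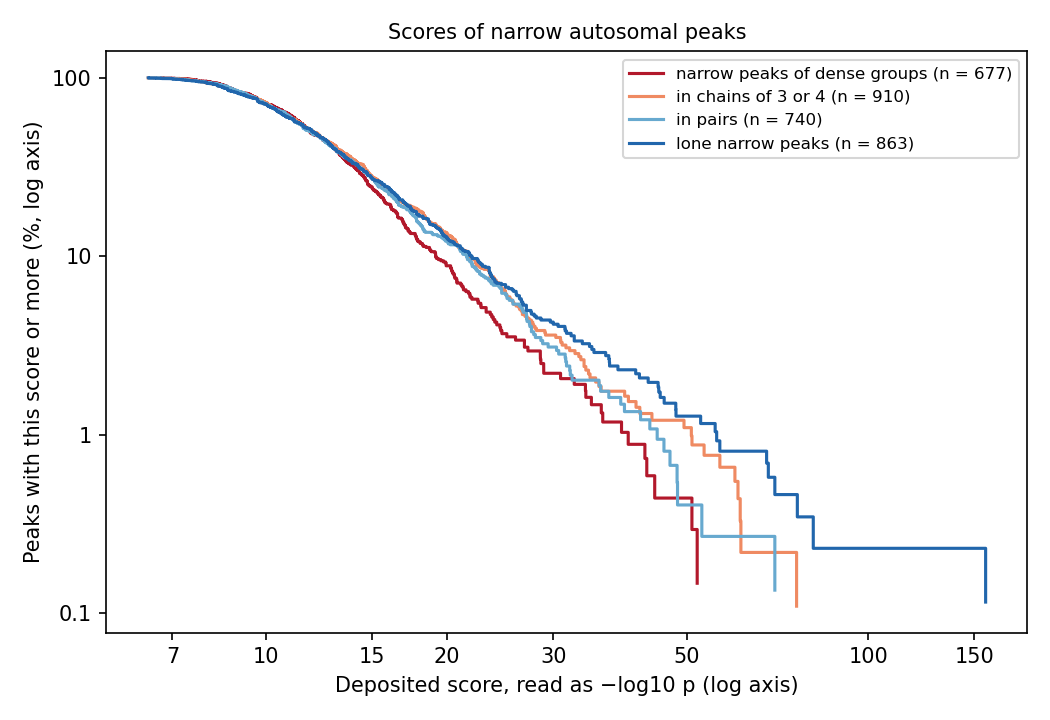
Share of narrow autosomal peaks (%, log axis) with at least a given deposited score (log axis) for members (n = 677), narrow peaks in chains of 3 or 4 (910), in pairs (740) and lone (863). The lines run together up to about the medians of 11.8 to 12.0, and between scores of 15 and 30 the line of the members runs lowest. It ends at 52.03, against 156.72 for lone peaks.

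Width went with score in members as in the rest of the list. Spearman's correlation of width and score was 0.593 across the 677 members and 0.644 across the 863 lone peaks, given as a description, since both values come from the same pileup of fragments. At 201 to 250 bp the median score was 9.69 in both members (n = 171) and lone peaks (n = 197). At 251 to 350 bp it was 11.5 in members (n = 187) and 10.8 in lone peaks (n = 239). At 351 to 500 bp it was 12.2 in members (n = 161) and 12.6 in lone peaks (n = 203). At 501 to 999 bp it was 16.2 in members (n = 158) and 17.8 in lone peaks (n = 224), and 28.5% of these members reached 20 against 38.8% of these lone peaks. The shares of 20 or more were 4.97% of members and 8.37% of lone peaks at 351 to 500 bp, but 3.21% of members (6 of 187) and 1.67% of lone peaks (4 of 239) at 251 to 350 bp. At 201 to 250 bp 0 of 171 members and 1 of 197 lone peaks reached 20. With the width limit set at 500 bp, 2.70% of members and 3.29% of lone peaks did. Of the 59 members of 20 or more, 45 were 501 to 999 bp wide.

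**Figure D4:**
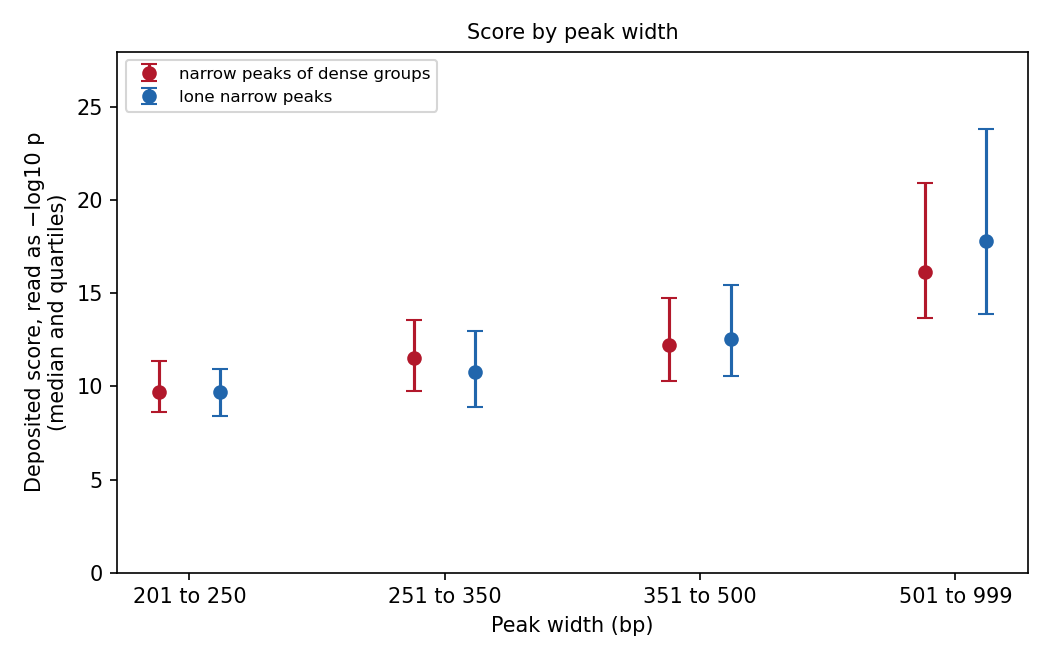
Median deposited score with quartiles (bars) by peak width (bp) for members (red) and lone narrow peaks (blue). The medians rise with width in both, from 9.69 at 201 to 250 bp to 16.2 in members and 17.8 in lone peaks at 501 to 999 bp, and the quartile ranges of the 2 kinds overlap in every class.

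The 10 members with the highest scores came from 10 different groups, and 5 of them were the first or last peak of their group. Of all members, 30.6% were end peaks. The highest, 52.03, lay on 2R at 7091999 to 7092839. It was the last of 6 members, and the others scored between 8.59 and 17.05. The second, 50.99 on 3L at 11410957 to 11411707, is in the group of 9 described above.

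Next came 44.23 on 2L at 14455126 to 14455650, again the last of 6 members, where no other exceeded 13.53. The 42.91 on 2R at 2493162 to 2493634 is the tall peak of the group of 11. A score of 42.6 belonged to the second peak of 8 on 3L at 8443197 to 8444110, whose neighbours stayed at 12.38 or less. The 39.97 on 2L at 18151842 to 18152373 was the last of 6 members, with 19.34 as the next highest.

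The 38.96 on 2R at 6428076 to 6428909 had a second member of 27.24 in its group. The last 3 were 36.26 on 2R at 8476072 to 8476725, 36.06 on 3R at 6175955 to 6176592 and 34.72 on 2L at 5240332 to 5241125. These 10 peaks were 473 to 914 bp wide. None of the 109 groups held more than 3 members of 20 or more, and the groups of these 10 peaks were picked by their highest member. That few of their other members reached 20 is thus no separate result.

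In 60 of the 109 groups no member reached 20, in 40 groups 1 member did, and in 9 groups 2 or 3 did. Over all members the share of 20 or more was 8.71%. With the broad peaks of the same chains counted, 44 groups had no peak of 20 or more. The highest peak of a group scored a median of 1.70 times its group's median (quartiles 1.40 and 2.21). That is a description only, since the highest score lies above the median by construction. The highest peak was an inside peak, neither first nor last, in 74 of 109 groups (67.9%). Inside peaks averaged 67.4% of a group's peaks. Inside members had a median score of 11.9 (n = 470) and end members one of 11.7 (n = 207).

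Adjacent members varied widely in score. Across the 534 pairs of adjacent members, Spearman's correlation of their scores was 0.0194, a description of pairs that share peaks and libraries, and the median difference between adjacent members was 3.54 in either direction (quartiles 1.63 and 6.36). Members of larger groups scored much like those of smaller ones. They had a median of 11.8 in groups of 5 or 6 peaks (n = 362), 12.0 in groups of 7 to 9 (n = 187) and 12.3 in groups of 10 or more (n = 128). Between single groups the median member score ran from 8.8 to 18.4, with quartiles over groups of 11.3 and 13.2.

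Some groups also contained broad peaks of 1000 bp or more, which are not members. There were 46 of them in 39 groups, of which 33 held 1, 5 held 2 and 1 held 3, while 70 groups had narrow peaks only. The broad peak was the highest of its group in 27 of the 39. The most extreme case was 3L from 5961053 to 5976814, where a broad peak of 241.38 lay among members of at most 16.55. Members of groups with a broad peak had a median score of 11.9 (n = 219), against 11.8 in groups without one (n = 458). The 74 members directly beside a broad peak had a median of 13.3 (quartiles 10.5 and 15.8), against 11.8 in the 603 other members (quartiles 9.73 and 14.7), and this difference was not tested.

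The score steps gave a readout that the rule for members did not use directly. Many peaks of the list shared the same scores, and these fell on −log10 of the Poisson upper tail at whole fragment pileups over a single background of 35.4 fragments. Peak callers of the MACS family set each pileup against the higher of a genome-wide background and a local estimate from the control. On this reading, a score on a step was set against the genome-wide background, and a score off the steps against a higher local one. Neighbouring peaks can share a local estimate, so the step share need not be independent of the spacing that chose the members. Only scores up to 20 were placed, and a score counted as on a step within 0.0075 of it.

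Few members lay on these steps. Of the 618 members with scores up to 20, 51 were on a step, which is 8.25% (exact interval 6.21 to 10.7%), whereas 16.6% of all autosomal peaks up to 20 were. The share was 14.7% in chains of 3 or 4 (interval 12.3 to 17.4%), 18.4% in pairs (15.5 to 21.6%) and 26.0% in lone narrow peaks (196 of 754, interval 22.9 to 29.3%). Across these 4 kinds it was lower where more peaks stood in a row, but by single group size it had no steady order. It was 13.2% in chains of 4 (40 of 303, interval 9.60 to 17.5%), 5.71% in groups of 5 (10 of 175, interval 2.77 to 10.3%), 12.3% in groups of 6 (19 of 154, interval 7.59 to 18.6%), 8.28% in groups of 7 to 9 and 6.67% in groups of 10 or more. The value for groups of 6 rests largely on 2 groups that held 5 members on steps each. The interval of groups of 6 overlapped those of chains of 3 or 4 and of pairs. All these intervals treat peaks as independent, but members on steps were unevenly spread, with no such member in 79 of the 109 groups. The intervals are thus too narrow to judge differences by whether they overlap. On steps shifted midway, where matches come from the density of scores alone, 3.56% of members and 5.17% of lone peaks were found. By group size the shifted share was 4% in groups of 5, 2.60% in groups of 6 and 1.18% in groups of 7 to 9. In groups of 10 or more it was 7.5%, above their 6.67% on the steps.

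The order of members and lone peaks was the same on each of the 4 long arms. On 2L 8.85% of members and 29.6% of lone peaks were on the steps, and on 2R 4.89% of members and 26.3% of lone peaks. On 3L it was 14.4% of members and 23.9% of lone peaks, and on 3R 5.59% of members and 25.6% of lone peaks. On steps shifted midway, the shares of members were 1.77% on 2L, 3.80% on 2R, 3.75% on 3L and 4.35% on 3R. Those of lone peaks were 6.79, 4.47, 3.72 and 5.94%. On 2R and 3R the share of members was thus little above its shifted level. The order of members and lone peaks was also the same at every width. The shares were lowest at 501 to 999 bp, with 6.19% of members and 19.0% of lone peaks. They were highest at 251 to 350 bp, with 9.94% of members and 30.6% of lone peaks. In 4 classes of score the shares of members lay between 4.85 and 10.2%, and those of lone peaks between 18.7 and 31.9%. Members in groups with a broad peak had 4.48% on the steps (9 of 201), against 10.1% in groups without one (42 of 417). Why so many members were off the steps was not tested.

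**Figure D5:**
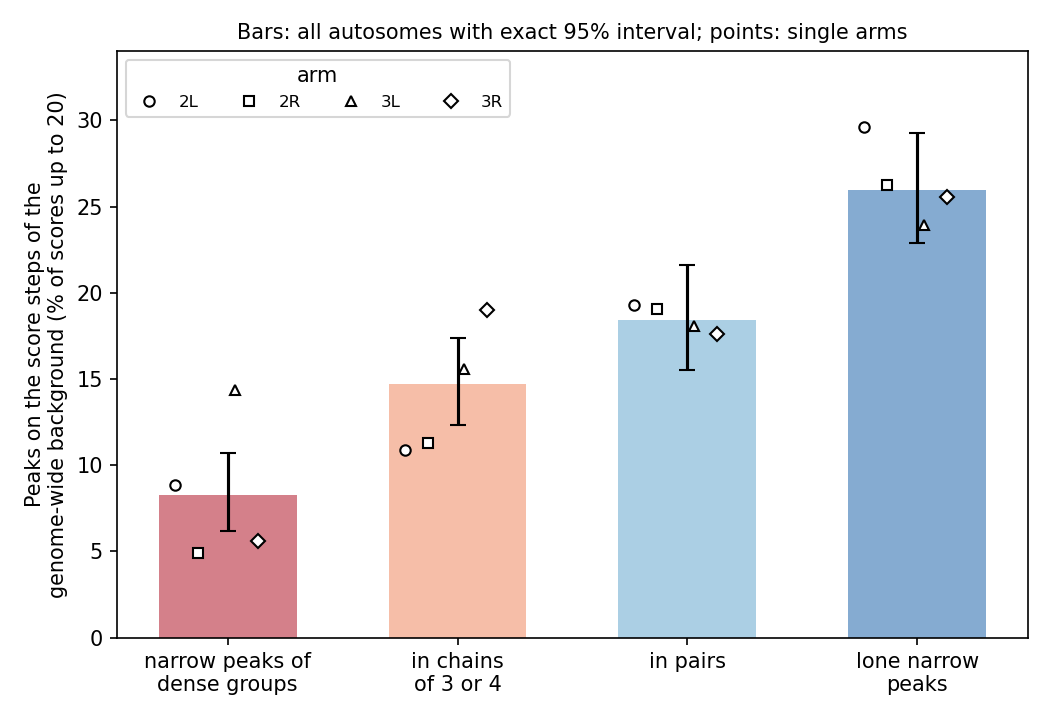
Share of narrow autosomal peaks with scores up to 20 (%) that lie on the score steps of the genome-wide background, by kind of peak. Bars give all autosomes with the exact 95% interval and points the single long arms, and the share is 8.25% in members, 14.7% in chains of 3 or 4, 18.4% in pairs and 26.0% in lone peaks.

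The 51 members on the steps lay in 30 of the 109 groups. In the other 79 no member was on a step, in 18 groups 1 was, and the most was 5. In 2 groups 5 of the 6 members were on steps. One lay on 2L from 4028287 to 4033985, with scores of 13.69 (off the steps), 11.53, 16.89, 12.7, 16.45 and 10.05 from left to right. The other lay on 3L from 5347694 to 5359033, with 16.89, 14.32, 7.34, 8.65, 26.88 (above the range placed) and 14.74. Where a member matched a step, its score was read as a pileup, which ran from 69 to 101 fragments with a median of 82. Some of these matches can come from the density of scores alone, as on the shifted steps (3.56% of members). These pileups are 1.95 to 2.85 times the background, with 2.31 times at the median, and in lone peaks on the steps the median pileup was 81.5 fragments. The steps ran only from 67 to 102 fragments, and on them the pileup is the score in another form. The range and the likeness of the medians are thus no separate result.

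At the limits of the choice, some values lay close together and others did not. The 190 members in groups of 5 had a median score of 11.7, and the 348 narrow peaks in the 93 chains of 4, just outside, one of 11.8. Scores of 20 or more made up 7.89% of these members and 12.9% of the peaks in chains of 4, and the step share was 5.71% in these members and 13.2% in chains of 4. Of the autosomal gaps, 37 lay between 4500 and 5000 bp and 41 between 5000 and 5500 bp. The 9 members 900 to 999 bp wide had a median score of 16.1, and the 11 chain peaks 1000 to 1099 bp wide, just outside, one of 22.9.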

How the data were processed

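The labels place 4 libraries in 2 groups, ChIP (2) and Input (2). The deposited peak list gives positions in FlyBase release 5 and names MACS, per the file headers. BDGP5, MACS2, BWA and CASAVA (1.7.0.3 and 1.7.0.2) appear in the submitters' processing notes. How the input was used, any pooling and the thresholds remain not given in the sources used here. The deposited scores carry no unit and were read as −log10 p-values from their steps; the background of the steps (35.4) was the value between 5 and 80 that placed most scores up to 20. Only release 6 gene names were at hand, so the planned annotation and sequence words were not run.

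Neighbour gaps were the next start minus the previous end. Named were the 12 groups with the most members, ties going to the higher summed score (the twelfth is 1 of 7 groups of 8), the 10 highest members and the 5 richest megabases. The members, comparisons and rules were chosen with earlier results of these data known. Chaining recovered the exact members in 40 of 40 simulated sets, and the step fit the background within 0.02 in 5 of 5. The simulated sets were built with the same limits and the same step formula. They check the code and not whether the deposited scores follow that formula. Python 3.11.15, numpy 2.4.6, pandas 2.3.3, scipy 1.17.1 and matplotlib 3.10.9 were used. Alternatives changed the gap, the group size, the width limit, the peaks entered, the arms and the step tolerance.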

Additional observations from a re-analysis of the deposited data

How the results depend on the processing

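Of 50 counts and shares set against an alternative, 35 stayed within the exact interval or a factor of 1.5. Medians were judged only against the wide spread of single peaks, so that staying inside it says little: the median member score ran from 11.15 to 15.5 and the median width from 292 to 453.5 bp. The number of members depends on the definition by construction: it was 440 with a gap of 2500 bp and 1087 with 10000 bp, 1025 (in 202 groups) with chains of 4 or more, 220 (23 groups) with chains of 8 or more, 84 (16 groups) among peaks above the median score, and 173 (36 groups) after merging within 500 bp. The highest peak was inside in 56.25% of groups among peaks above the median score. The share of members on the score steps was 12.5% after merging, 6.11% without arm 3L, 5.66% with a smaller tolerance around a step and 3.56% on shifted steps. The scores are rounded, so the smaller tolerance can drop matches by rounding alone, and no share of lone peaks was set beside it. Under the alternatives that redefined the groups or left out an arm, the share of members stayed below that of lone peaks. The smallest difference was among peaks above the median score, with 7.46% of members and 18.6% of lone peaks. The smallest ratio of lone peaks to members came after merging, with 12.5% of members and 25.6% of lone peaks. The difference of median scores between members and lone peaks had no stable sign, from −0.55 after merging to 0.395 with a gap of 2500 bp, and from −1.66 to 0.74 over width classes. No paired analysis was possible because each peak has 1 score for the whole series, so leaving out a replicate was not possible either. The depth is unknown, so sites under the caller's threshold cannot be judged. The alternative for promoters and sequence words was not run, since no annotation of release 5 was used.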
